A study of Mus musculus with 145 samples.

Results

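The genes described here are Trpm5, Gnat3, Pou2f3, Dclk1, Avil, Plcb2 and Gfi1b, which are known from the tuft cells of mucosal epithelia and were followed through the thymic epithelium. They are 7 of the 19752 gene symbols that a probe set of the array carries alone, and each was measured by 1 probe set. They were selected on their log2 intensities in these arrays, as known from earlier work on the same data, so their epithelial levels are given as a description and without a test. Of 145 mouse arrays in 65 groups, 22 arrays in 10 groups hold thymic epithelial cells, and the other 123 arrays in 55 groups hold mostly leukocytes and some stromal cells. By their titles these others are not all untreated cells of wild-type mice. They include Gata6 knockout peritoneal macrophages with controls, fetal thymocytes, and lymph node stroma after CFA. Spleen T cells after LCMV or Listeria-OVA, with Tbet+ and Tbet- OT1 effectors, and T cells cultured with anti-CD3 and CD28 beads are also among them.

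GFP+ medullary epithelial cells of KO mice gave 3 arrays, and GFP+ and GFP- medullary epithelial cells without that label gave 3 each. All 9 are labelled C57BL/6, 5 weeks old, of mixed sex, CD45- Ly51- with high MHC class II. The labels name neither the gene missing in the KO mice nor the gene that GFP reports, and no genotype is given for the other 6 arrays beyond the strain. The 3 GFP+ arrays without the KO label are called control below, a name that the labels do not give. The other 13 arrays came from C57BL/6 males. At 8 weeks there were 2 arrays each of cortical cells sorted as CEC Sca1+, cortical cells called CEChi, medullary cells called MEChi and medullary cells called MEClo. At 5 weeks there were 2 arrays of MEC Sca1+, 1 of MEChi and 2 of MEClo. Their cortical or medullary nature and the high or low class come from the sample titles, since the marker label is the same for all 13 (EpCAM+ Ly51+ MHCII+ Sca1+). The values are linear intensities normalized by the submitters, and levels are compared only within a gene. Nothing in the labels says whether arrays of a group came from separate animals, so the spread between them may be technical.

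Tuft cells are rare chemosensory cells of mucosal epithelia that share a signalling cascade with taste receptor cells. A receptor acts through a taste G protein on phospholipase C, calcium is released from stores, and the TRPM5 channel opens. In the gut they are known for releasing IL-25 and lipid mediators. Cells of this kind have been described in the thymic medulla, where many epithelial cells express genes typical of other tissues.

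In this cascade Gnat3 encodes gustducin, the taste G protein alpha subunit, Plcb2 encodes the phospholipase C, and Trpm5 encodes the cation channel that calcium opens. Pou2f3 encodes the POU transcription factor that tuft cells need in order to form. Gfi1b encodes a zinc finger repressor that is known best from red cell and platelet precursors. Avil encodes advillin, an actin-binding protein of the villin family, and Dclk1 encodes a microtubule-associated kinase used as a tuft cell marker in the gut. In the RefSeq records of build GRCm38.p6 the genes lie at chr5:17962570-18019668 (Gnat3), chr2:118705003-118728661 (Plcb2), chr7:143071529-143094642 (Trpm5), chr9:43123927-43205755 (Pou2f3), chr2:28609450-28621982 (Gfi1b), chr10:127000065-127020994 (Avil) and chr3:55242303-55539068 (Dclk1).

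RefSeq start regions, running from 250 bases before a start to 50 bases from it, were at hand for 6 of the 7 genes, with 2 for Dclk1 and none for Pou2f3. The 4 printed here, 5′ to 3′ on the gene's strand, belong to the genes with the largest difference between GFP+ and GFP- medullary cells. Capitals mark the motifs searched on both strands, namely the octamer ATGCAAAT that POU factors are known to bind, its first 7 letters, the CCAAT box (CCAAT), the GC box (GGGCGG) and the TATA box (TATAAA). The Gnat3 region is chr5:17962320-17962619 (+), Plcb2 is chr2:118728389-118728688 (−), Trpm5 is chr7:143094593-143094892 (−) and Avil is chr10:127000459-127000758 (+).
Gnat3: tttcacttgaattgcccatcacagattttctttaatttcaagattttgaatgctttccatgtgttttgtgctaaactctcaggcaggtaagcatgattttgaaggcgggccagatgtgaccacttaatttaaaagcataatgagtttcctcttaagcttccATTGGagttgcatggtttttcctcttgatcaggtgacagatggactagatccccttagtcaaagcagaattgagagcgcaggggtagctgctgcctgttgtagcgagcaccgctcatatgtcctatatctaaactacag
Plcb2: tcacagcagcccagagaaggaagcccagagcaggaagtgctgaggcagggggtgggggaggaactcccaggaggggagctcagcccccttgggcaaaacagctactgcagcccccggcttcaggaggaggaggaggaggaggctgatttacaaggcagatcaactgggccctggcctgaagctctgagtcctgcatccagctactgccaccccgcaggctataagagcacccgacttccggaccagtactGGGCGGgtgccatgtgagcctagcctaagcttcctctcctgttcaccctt
Trpm5: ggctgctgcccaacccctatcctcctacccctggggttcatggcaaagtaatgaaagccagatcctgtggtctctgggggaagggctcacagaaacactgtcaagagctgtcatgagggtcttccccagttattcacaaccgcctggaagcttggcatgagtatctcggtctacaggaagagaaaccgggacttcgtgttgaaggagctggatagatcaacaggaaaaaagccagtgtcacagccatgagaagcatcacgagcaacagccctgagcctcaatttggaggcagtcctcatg
Avil: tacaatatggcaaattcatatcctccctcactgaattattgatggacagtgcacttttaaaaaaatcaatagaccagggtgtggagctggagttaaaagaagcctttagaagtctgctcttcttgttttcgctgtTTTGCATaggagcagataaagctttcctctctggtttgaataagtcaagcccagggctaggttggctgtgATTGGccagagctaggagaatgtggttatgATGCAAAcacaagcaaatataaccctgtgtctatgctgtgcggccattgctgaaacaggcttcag

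The whole octamer was in none of the 7 start regions of these genes, against 1.74% of all 32851 RefSeq mouse start regions of this length. Its first 7 letters were in 1 of the 7, that of Avil, where the matches begin 115 and 15 bases before the start on opposite strands, and in 4.63% of all. CCAAT was in 4 of the 7 and in 37.4% of all, GGGCGG in 2 of the 7 and in 35.7% of all, and TATAAA in none of the 7 and in 13.6% of all. The GC content was 42.0% for Gnat3, 61.7% for Plcb2, 53.0% for Trpm5 and 43.0% for Avil, against a median of 52.7% over all start regions. A match is only a stretch of letters, and the octamer contains its first 7 letters.

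Array medians lay between 111.7 and 146.7 over the 145 arrays, and no array repeated another. All 7 markers listed for thymic epithelium were at or above the median intensity of the epithelial arrays (139.3) in every medullary group. Aire, the regulator of peripheral antigens in medullary cells, lay at 3893 to 4387 in KO GFP+ cells, 3605 to 5203 in GFP+ cells and 495.3 to 772.3 in GFP- cells. It lay at 3825 to 4339 in MEChi and 214.6 to 345.0 in MEClo at 8 weeks. Psmb11, the thymoproteasome subunit of cortical cells, lay at 2888 to 4255 in CEChi, against 101.5 to 121.0 in MEChi, and at 276.0 to 413.6 in MEClo at 8 weeks. H2-Aa, an MHC class II chain, did not pass the test between MEChi and MEClo at 8 weeks (log2 difference 0.11, adjusted p = 0.57 by limma), although the sorts are named high and low.

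Gnat3 had the widest span of the 7 genes within the epithelium. Its intensities were 63.6, 91.0 and 33.1 in KO GFP+ cells, 37.8, 43.6 and 44.7 in GFP+ cells, and 679, 882 and 1123 in GFP- cells. At 8 weeks they were 16.0 and 15.1 in CEC Sca1+, 20.5 and 28.3 in CEChi, 400 and 295 in MEChi, and 2012 and 2546 in MEClo. At 5 weeks they were 118 and 34.3 in MEC Sca1+, 379 in the lone MEChi array, and 3079 and 2575 in MEClo. The MEClo arrays were the highest at either age, GFP- cells came next, and the cortical arrays lay at the low end with no overlap with any medullary group. GFP+ cells were lower than GFP- cells by a log2 difference of -4.38 ± 0.31 (SE of the limma fit, n = 3 each), and MEChi was lower than MEClo at 8 weeks by -2.72 ± 0.43 (n = 2 each). Nowhere in the other 123 arrays did Gnat3 exceed 41.1, so 5 of the 10 epithelial groups lay wholly above all of them.

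Plcb2 lay at 147, 123 and 120 in KO GFP+ cells, 101, 79.9 and 119 in GFP+ cells, and 1423, 2096 and 2130 in GFP- cells. At 8 weeks it lay at 96.5 and 66.3 in CEC Sca1+, 132 and 141 in CEChi, 625 and 549 in MEChi, and 2232 and 1926 in MEClo. At 5 weeks it lay at 159 and 89.7 in MEC Sca1+, 559 in MEChi, and 2360 and 1637 in MEClo. GFP- and MEClo cells overlapped at the top, and GFP+ cells were as low as cortical ones. The log2 difference of GFP+ over GFP- cells was -4.23 ± 0.18, and that of MEChi over MEClo at 8 weeks was -1.82 ± 0.27. Outside the epithelium Plcb2 is a leukocyte gene, at 91.7 to 2692 in 111 leukocyte arrays and at 58.8 to 99.4 in 12 stromal arrays, so GFP-, MEChi and MEClo cells stood above stroma and within the leukocyte range.

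Trpm5 lay at 101, 74.3 and 64.9 in KO GFP+ cells, 90.4, 89.5 and 97.7 in GFP+ cells, and 1372, 1727 and 1618 in GFP- cells. At 8 weeks it lay at 64.2 and 54.0 in CEC Sca1+, 64.5 and 78.3 in CEChi, 567 and 418 in MEChi, and 3072 and 2910 in MEClo. At 5 weeks it lay at 178 and 90.1 in MEC Sca1+, 481 in MEChi, and 2958 and 1465 in MEClo. The MEClo arrays were again on top, with 1 array of 5-week MEClo inside the range of GFP- cells. The cortical arrays were below every GFP+ array without the KO label. The log2 difference was -4.08 ± 0.16 for GFP+ over GFP- cells and -2.62 ± 0.35 for MEChi over MEClo at 8 weeks. Among the other 123 arrays the median was 55.4 and the highest value, 229, came from a spleen B1a array whose marker label (CD4+ CD8+ CD69+) is not that of a B cell.

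Pou2f3 stood above all non-epithelial arrays in more epithelial groups than the other 6 genes. It lay at 477, 242 and 196 in KO GFP+ cells, 328, 379 and 378 in GFP+ cells, and 1580, 1878 and 2146 in GFP- cells. At 8 weeks it lay at 200 and 213 in CEC Sca1+, 139 and 193 in CEChi, 1140 and 987 in MEChi, and 2049 and 1741 in MEClo. At 5 weeks it lay at 353 and 285 in MEC Sca1+, 826 in MEChi, and 1893 and 1391 in MEClo. GFP- and MEClo cells overlapped, MEChi came next, and in 9 of the 10 epithelial groups, all but CEChi, every array was above the highest of the other 123 arrays (140). The log2 difference was -2.36 ± 0.27 for GFP+ over GFP- cells, -0.83 ± 0.20 for MEChi over MEClo at 8 weeks and -2.69 ± 0.20 for CEChi over MEChi.

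Gfi1b differed least between the groups. It lay at 171, 174 and 174 in KO GFP+ cells, 190, 209 and 218 in GFP+ cells, and 300, 349 and 298 in GFP- cells. At 8 weeks it lay at 134 and 106 in CEC Sca1+, 139 and 119 in CEChi, 261 and 263 in MEChi, and 448 and 296 in MEClo. At 5 weeks it lay at 154 and 137 in MEC Sca1+, 226 in MEChi, and 322 and 382 in MEClo. MEClo and GFP- cells were on top, and the log2 difference was -0.62 ± 0.10 for GFP+ over GFP- cells and -0.47 ± 0.20 for MEChi over MEClo at 8 weeks.

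Avil lay at 139, 113 and 96.7 in KO GFP+ cells, 127, 141 and 155 in GFP+ cells, and 799, 1170 and 1422 in GFP- cells. At 8 weeks it lay at 114 and 82.9 in CEC Sca1+, 89.1 and 107 in CEChi, 507 and 281 in MEChi, and 1895 and 1838 in MEClo. At 5 weeks it lay at 132 and 107 in MEC Sca1+, 337 in MEChi, and 1611 and 718 in MEClo. MEClo at 8 weeks stood above every other group, and the 2 MEClo arrays at 5 weeks spanned the range of GFP- cells. The log2 difference was -2.97 ± 0.20 for GFP+ over GFP- cells and -2.30 ± 0.35 for MEChi over MEClo at 8 weeks.

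Dclk1 lay at 181, 170 and 123 in KO GFP+ cells, 162, 149 and 185 in GFP+ cells, and 457, 600 and 594 in GFP- cells. At 8 weeks it lay at 317 and 226 in CEC Sca1+, 132 and 198 in CEChi, 394 and 394 in MEChi, and 2467 and 2158 in MEClo. At 5 weeks it lay at 676 and 685 in MEC Sca1+, 397 in MEChi, and 2175 and 1934 in MEClo. Its order differed from that of the other members, since both MEC Sca1+ arrays stood above GFP- and MEChi cells, where Gnat3, Plcb2 and Trpm5 were near their low end. The 4 fibroblast markers summed to 2622 to 2855 in MEC Sca1+, 1058 in MEChi at 5 weeks and 761.8 to 1019 in GFP- cells. In MEClo at 5 weeks they summed to 2663 to 2674. Col3a1 among them reached the median intensity in MEC Sca1+, CEC Sca1+ and KO GFP+ cells only. Their part in the order of Dclk1 was not tested. The log2 difference of Dclk1 was -2.55 ± 0.21 for MEChi over MEClo at 8 weeks and -1.73 ± 0.16 for GFP+ over GFP- cells.

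**Figure D1:**
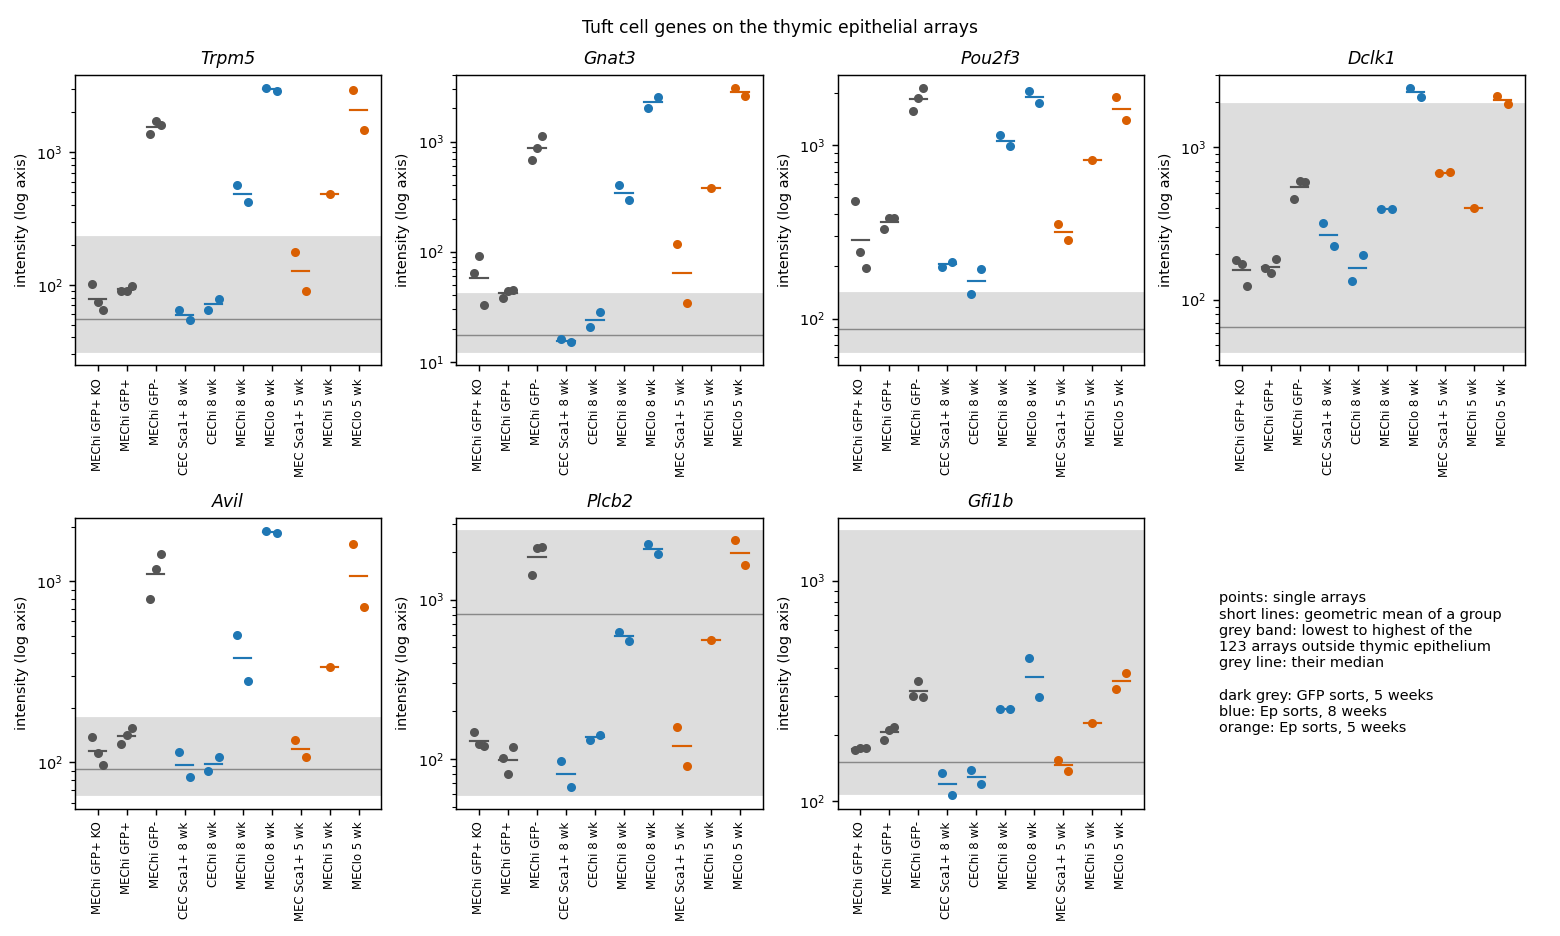
Intensity of the 7 genes (log axis) on each of the 22 thymic epithelial arrays, by group. Points are arrays, the short line is the group's geometric mean, and the grey band runs from the lowest to the highest of the 123 other arrays with their median as a grey line. MEClo and GFP- cells are at the top for 6 of the 7 genes, while Dclk1 is higher in MEC Sca1+ than in GFP- cells.

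Across the 22 arrays the log2 levels of the genes were correlated in every pair, with Pearson's r between 0.682 (Dclk1 and Gfi1b) and 0.987 (Trpm5 and Avil). The pairs of Dclk1 with the other 5 genes had r from 0.762 to 0.849. These values are a description, since arrays of 1 group are not independent and the genes were chosen for this pattern. As the arrays were made from bulk sorted cells, fewer cells of a type and less RNA per cell cannot be told apart in any of these levels.

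The other contrasts of the 7 genes are given by their extremes. KO over control GFP+ cells gave log2 differences between -0.35 ± 0.27 (Pou2f3) and 0.46 ± 0.31 (Gnat3). CEC Sca1+ over CEChi gave between -0.77 (Plcb2) and 0.73 (Dclk1). MEClo at 8 weeks over MEClo at 5 weeks gave between -0.32 ± 0.43 (Gnat3) and 0.79 ± 0.35 (Avil). CEChi over MEChi at 8 weeks gave between -3.83 (Gnat3) and -1.02 (Gfi1b), and MEC Sca1+ over MEClo at 5 weeks between -5.47 (Gnat3) and -1.27 (Gfi1b).

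**Figure D2:**
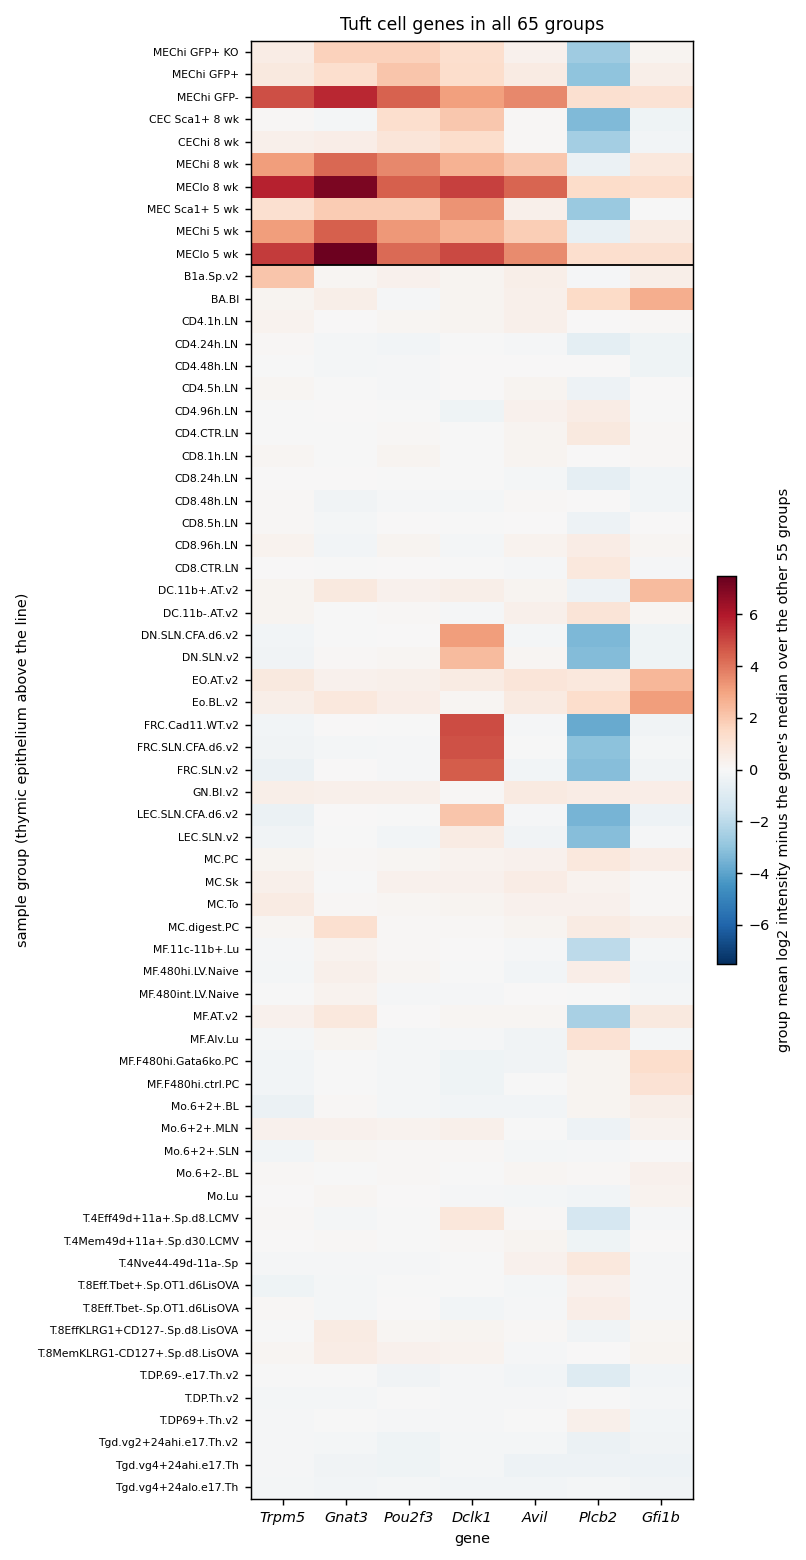
Mean log2 intensity of each gene in all 65 groups, minus the gene's median over the 55 groups outside the thymic epithelium. Red cells are above that median and blue cells below. Gnat3, Trpm5, Avil and Pou2f3 stand out in thymic medullary groups, while Plcb2 is high in many leukocyte groups, Gfi1b in eosinophils and basophils, and Dclk1 in fibroblastic stroma.

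Further genes known from tuft cells were followed from a list of 85, of which 83 were analysed here. They comprise 17 signalling genes, 11 enzymes, cytokines and receptors of tuft cell output, 23 genes of structure and identity, and 34 bitter taste receptors. A probe set was tested where at least 1 group averaged no less than the median of all values in the fit, and called at an adjusted p under 0.05 by limma with Benjamini-Hochberg adjustment over all probe sets of the fit. Of the 64 listed genes that passed in the 13-array fit, 25 passed only through a MEClo group, which had to put them higher there, and 20 of these 25 are bitter receptors. In the fit of the GFP sorts, 16 of the 43 that passed did so only through GFP- cells, among them all 5 bitter receptors tested. The filter's threshold was an intensity of 138.4 in the first fit and 140.5 in the second. In the contrasts of other cells with MEClo or GFP- cells, counts by list are therefore given over genes that reached it in some other group. A gene that did not is described there without a p.

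Between MEChi and MEClo at 8 weeks, 55 of the 64 tested tuft genes were lower in MEChi and 2 higher, where 19.4% of all tested probe sets were lower and 18.8% higher (38.2% in all). Among the 39 that reached the threshold outside MEClo, 30 were lower in MEChi and 2 higher (median log2 difference -1.30, against -0.06 over all tested probe sets). Of these the signalling list had 10 of 11 lower (-1.77), the output list 6 of 7 (-1.08), the identity list 13 of 19 (-0.91) and the bitter receptors 1 of 2 (-1.59). Tas2r118, which reached it only in MEClo, averaged 136.6 in MEChi and 2042 in MEClo (log2 difference -3.90 ± 0.27). Alox5, the 5-lipoxygenase of leukotriene synthesis, averaged 513.8 in MEChi and 2577 in MEClo (-2.33 ± 0.25, adjusted p = 1.8e-05 by limma). Rgs13, a regulator of G protein signalling, averaged 662.8 in MEChi and 2552 in MEClo (-1.94 ± 0.47, adjusted p = 0.0068 by limma). Without any filter 68 of the 83 (81.9%) were called in either direction, against 30.3% of all 24922 probe sets.

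The exceptions are Itpr3, the calcium release channel below phospholipase C, and Vil1, the actin-binding villin. Itpr3 averaged 614.8 in MEChi and 392.9 in MEClo (log2 difference 0.65 ± 0.16, adjusted p = 0.0075 by limma), a call lost with single arrays left out (adjusted p 0.051 to 0.06). Vil1, which reached the threshold only in MEChi groups, averaged 204.8 in MEChi and 116.6 in MEClo (0.81 ± 0.19). Spib, an ETS factor of tuft and other cells, averaged 3007 in MEChi and 3411 in MEClo (-0.18, adjusted p = 0.44 by limma), unlike the 7 genes, and 107.7 in CEChi against 3007 in MEChi (-4.80 ± 0.17, adjusted p = 1.2e-08 by limma). Other cells' markers moved with this contrast as well. The 5 leukocyte markers summed to 11180 to 12160 in MEChi and 2735 to 2743 in MEClo, the opposite direction to the tuft genes. In either group 3 of these reached the median intensity of the epithelial arrays, with Coro1a in MEChi only and Ptprc in MEClo only. Ptprc thus ran against the sum. The 4 neuroendocrine markers summed to 1202 to 1313 in MEChi and 3712 to 3942 in MEClo. Of them 1 reached that median in MEChi and 3 in MEClo. The 5 cortical markers summed to 1950 to 2425 in MEChi and 3502 to 4224 in MEClo. In either group 4 of them reached the median, with Enpep in MEChi only and Psmb11 in MEClo only. Enpep thus ran against the sum. The 4 fibroblast markers summed to 864.2 to 885.9 in MEChi and 2015 to 2262 in MEClo. Of them 2 reached the median in either group, and Pdgfra and Col3a1 in neither. The 5 myeloid and dendritic markers summed to 4874 to 4904 in MEChi and 656.4 to 675.0 in MEClo, with 2 and 1 of them at or above the median, and the 4 keratinized markers to 1444 to 1786 and 686.7 to 870.0, with 4 and 1. None of the 4 T lineage markers with a probe set reached the median intensity in MEClo, and of the 6 mast cell and basophil markers only Kit did. The part of these in the result was not tested.

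The contrast of GFP+ with GFP- medullary cells rests on other sorts and arrays. Of 43 tested tuft genes 33 were lower in GFP+ cells and 1 higher, where 20.5% of all tested probe sets were lower and 28.9% higher (49.4% in all). Among the 27 that reached the threshold outside GFP- cells, 17 were lower and 1 higher (median log2 difference -0.85, against 0.06 over all tested probe sets). Of these the signalling list had 5 of 7 lower (-1.93), the output list 4 of 6 (-1.35) and the identity list 8 of 14 (-0.54), and no bitter receptor was among them. Rgs13 and Bmx, a Tec family kinase, reached it only in GFP- cells. Rgs13 averaged 55.17 in GFP+ and 2065 in GFP- cells (-5.23 ± 0.50), and Bmx 26.95 in GFP+ and 455.8 in GFP- cells (-4.08 ± 0.22). Gnb3, a G protein beta subunit of taste cells, averaged 156.6 in GFP+ and 1407 in GFP- cells (-3.17 ± 0.22, adjusted p = 3e-06 by limma). The exception is Il4ra, a receptor chain for IL-4 and IL-13, at 1592 in GFP+ and 1272 in GFP- cells (0.32 ± 0.09, adjusted p = 0.013 by limma), a call that quantile normalization ended (0.20, adjusted p = 0.079). Without any filter 60 of the 83 (72.3%) were called, against 36.2% of all probe sets. The 4 markers of keratinized cells summed to 735.8 to 830.9 in GFP+ and 2915 to 4039 in GFP- cells. Of these 2 reached the median intensity in GFP+ and 3 in GFP- cells. Lor reached it in GFP+ cells only, against the direction of the sum. The 5 leukocyte markers summed to 10140 to 11260 in GFP+ and 7620 to 8798 in GFP- cells. The part of either list in the result was not tested.

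Between CEChi and MEChi at 8 weeks, 33 of 64 tuft genes were lower in CEChi and 5 higher, where 23% of all tested probe sets were lower and 25% higher (47.9% in all). Of the 12 signalling genes 9 were lower (median -1.34), and of the 22 bitter receptors 8 (-0.22). Of the 64 genes 25, among them 20 of the 22 receptors, passed the filter only through MEClo. Their averages lay below its threshold in both CEChi and MEChi. Higher in CEChi were Hpgd, Runx1, Krt18, Nebl and Il13ra1, led by Hpgd, a prostaglandin dehydrogenase, at 4216 in CEChi and 561.5 in MEChi (2.91 ± 0.21, adjusted p = 5.7e-07 by limma). Without a filter the calls in both directions together came to 39 of 83 (47.0%) against 38.9% of all probe sets. That pooled share is near the background, while the counts by direction above lean to lower in CEChi. The 4 T lineage markers summed to 3848 to 4085 in CEChi and 556.1 to 607.4 in MEChi (4 and 2 at or above the median intensity), the 5 leukocyte markers to 2216 to 2517 and 11180 to 12160 (4 and 3), and the 4 neuroendocrine markers to 250.3 to 341.6 and 1202 to 1313 (1 in either). Among the leukocyte markers Ptprc reached that median in CEChi only, against the direction of the list's sum. The part of these lists in the result was not tested. The MEChi arrays are the same as in the contrast with MEClo.

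Between MEC Sca1+ and MEClo at 5 weeks, 48 of 64 tuft genes were lower in MEC Sca1+ and none higher by limma (53 had an unadjusted p under 0.05 in either direction), where 3.9% of all tested probe sets were lower and 2.33% higher (6.23% in all). Among the 39 that reached the threshold outside MEClo, 24 were lower (median -1.59), with 10 of 11 signalling genes (-2.97), 5 of 7 output genes (-2.14), 8 of 19 identity genes (-0.53) and 1 of 2 bitter receptors (-2.72). Rgs13 averaged 89.45 in MEC Sca1+ and 2220 in MEClo (-4.63 ± 0.47, adjusted p = 0.00011 by limma). Tas2r118 averaged 81.16 in MEC Sca1+ and 3568 in MEClo (-5.46 ± 0.27). The 4 neuroendocrine markers summed to 254.6 to 271.3 in MEC Sca1+ and 2433 to 2791 in MEClo (0 and 3 at or above the median intensity), and the 6 mast cell and basophil markers to 306.5 to 338.7 and 809.4 to 1008 (0 and 1, Kit). The 4 fibroblast markers overlapped, at 2622 to 2855 in MEC Sca1+ and 2663 to 2674 in MEClo (3 and 2, with Col3a1 in MEC Sca1+ only). The part of these lists in the result was not tested. Without any filter 59 of the 83 (71.1%) were called, against 4.49% of all probe sets. In the cortical contrast, CEC Sca1+ over CEChi, 8 of 64 were lower and 3 higher, where 7.22% of all tested probe sets were lower and 6.01% higher (13.2% in all). No bitter receptor was called by limma there (2 of 22 had an unadjusted p under 0.05), but 20 of the 22 averaged below the threshold in both groups. Without any filter 10 of the 83 were called, against 8.55% of all probe sets. The 4 T lineage markers summed to 788.7 to 1097 in CEC Sca1+ and 3848 to 4085 in CEChi (3 and 4 at or above the median intensity). The 5 leukocyte markers summed to 644.0 to 833.3 and 2216 to 2517 (1 and 4). The 5 cortical markers summed to 4461 to 6090 and 22830 to 23420 (5 in either), and the 4 fibroblast markers to 3153 to 3738 and 1721 to 1750 (3 and 2). The part of these in the cortical contrast was not tested.

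**Figure D3:**
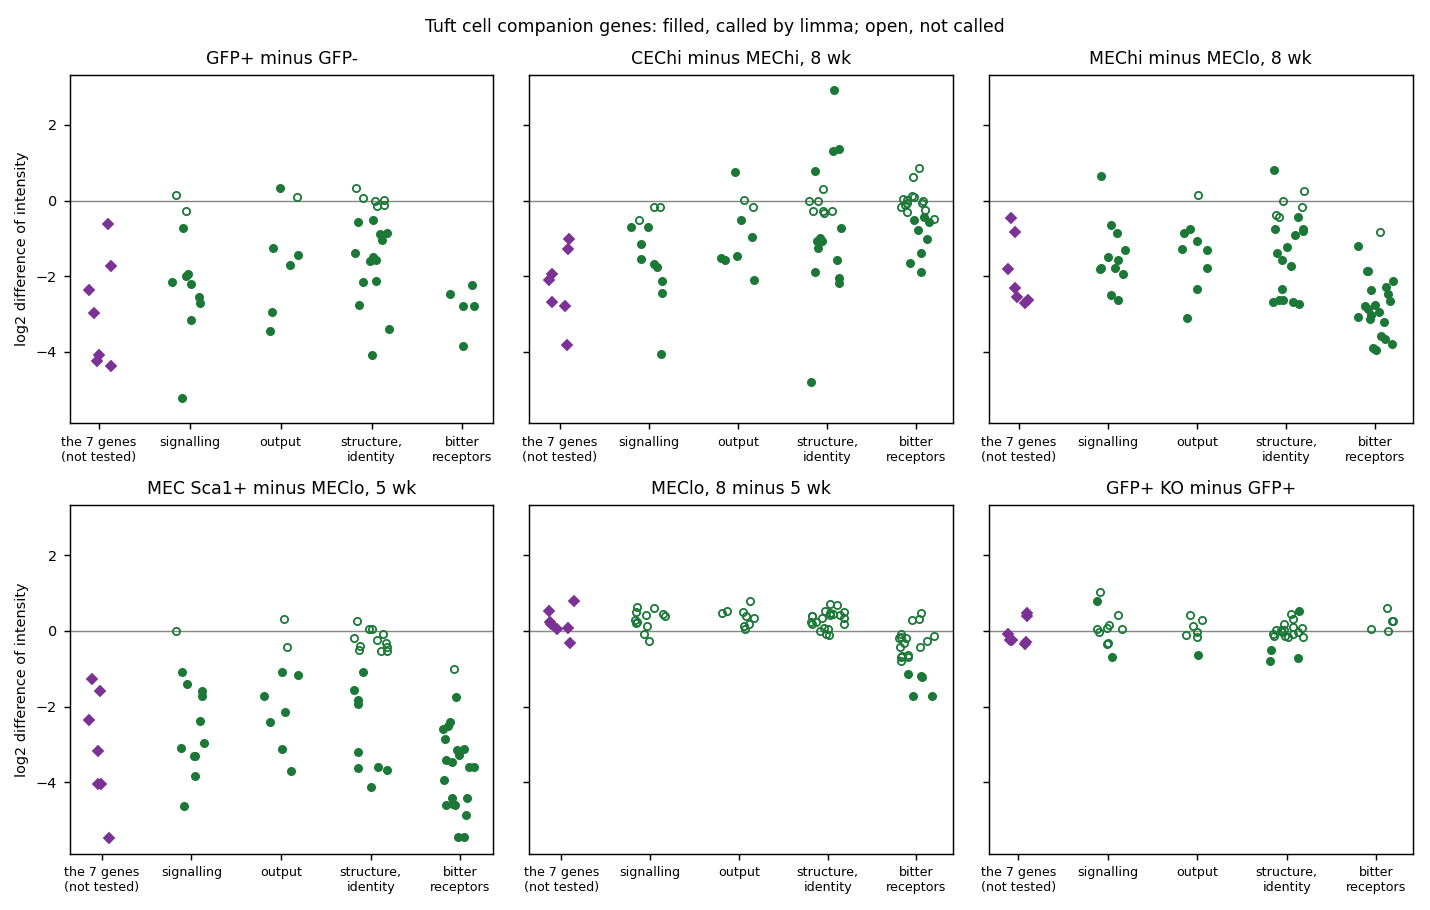
Log2 difference of each tested tuft gene in 6 contrasts. Filled points passed limma at an adjusted p under 0.05, open points did not, and purple diamonds are the 7 genes, which were not tested. In the contrasts of MEChi and MEC Sca1+ with MEClo and of GFP+ with GFP- cells most called points lie below 0, and many of those genes passed the filter only through MEClo or GFP- cells.

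Age separated MEClo arrays in some bitter receptors. Of 64 tuft genes 5 were lower in MEClo at 8 weeks than at 5 weeks and none higher by limma (23 had an unadjusted p under 0.05 in either direction), where 0.265% of all tested probe sets were lower and 0.299% higher (0.564% in all), and all 5 are bitter receptors. Tas2r106 averaged 129.3 at 8 weeks and 426 at 5 weeks (log2 difference -1.72 ± 0.16, adjusted p = 0.00054 by limma). Tas2r121 averaged 98.9 at 8 weeks and 327.5 at 5 weeks (-1.73 ± 0.21, adjusted p = 0.0037 by limma). Tas2r104, Tas2r105 and Tas2r140 had log2 differences of -1.19, -1.14 and -1.22. These 3 lost the call without 1 MEClo array of either age, and the count of 5 ranged from 2 to 8 when single arrays were left out. Without any filter 7 of the 83 (8.43%) were called, against 0.393% of all probe sets. The other 17 tested receptors were not called, 12 of the 22 had an unadjusted p under 0.05, and the receptors' median was -0.43 where the signalling list had 0.34. The 5 cortical markers summed to 3502 to 4224 at 8 weeks and 1091 to 1437 at 5 weeks, with 4 and 2 of them at or above the median intensity, and their part in the result was not tested. Tas2r106, Tas2r121 and Tas2r140 reached the filter's threshold only in MEClo at 5 weeks. All 5 were also called where every probe set was tested without a filter (adjusted p from 0.00048 to 0.027 by limma). Most of these receptor genes lie in 1 cluster on mouse chromosome 6 and resemble each other, and signal shared between their probe sets was not tested.

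**Figure D4:**
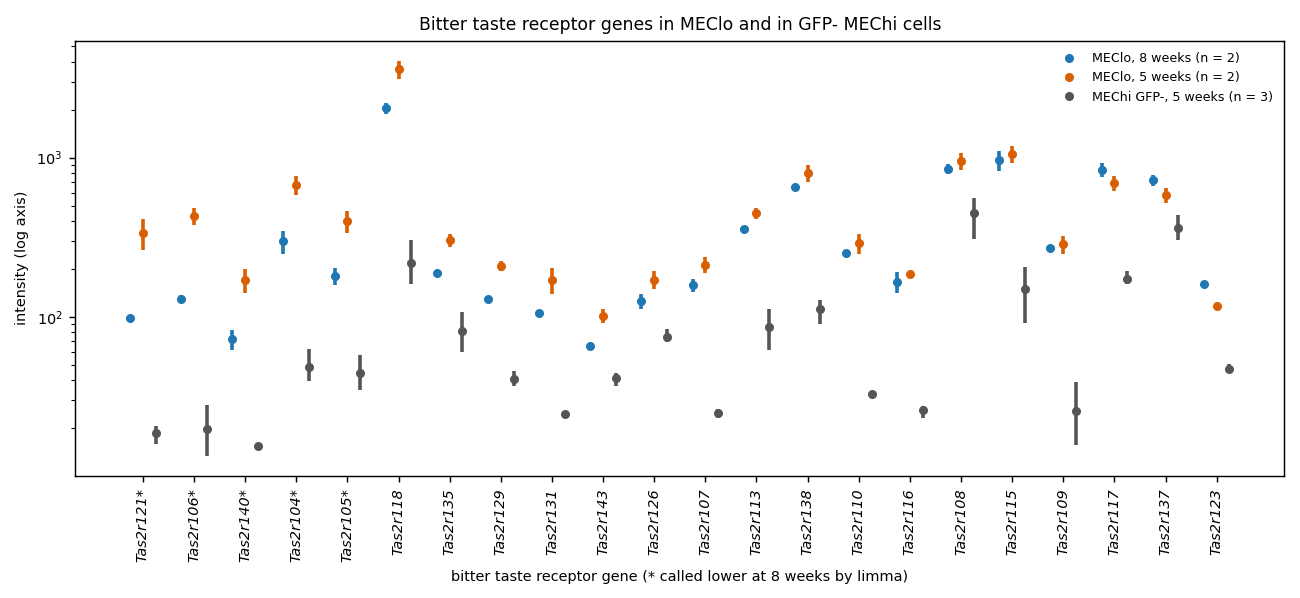
Intensity (log axis) of the 22 tested bitter receptors in MEClo at 8 weeks, MEClo at 5 weeks and GFP- medullary cells. Dots are group means, lines run from the lowest to the highest array, and an asterisk marks the 5 receptors called lower at 8 weeks than at 5 weeks. Most receptors shown are dimmer in GFP- cells than in MEClo. Of the 22, however, 20 passed the filter only through a MEClo group, which favours higher levels there.

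MEClo and GFP- cells, the groups on top for the 7 genes, came from different sorts and fits, and their levels are set side by side without a test. Pou2f3 averaged 1889 in MEClo at 8 weeks and 1854 in GFP- cells, Plcb2 2073 and 1852, and Rgs13 2552 and 2065. Dclk1 averaged 2308 in MEClo and 547 in GFP- cells, Tas2r118 2042 and 209.6, and Tas2r115 952 and 143. GFP- cells thus lay close to MEClo for Pou2f3 and Plcb2, and several times below it for Dclk1, Tas2r118 and Tas2r115. The gap was smaller for other receptors, such as Tas2r108 (844.8 and 437.5) and Tas2r137 (717.6 and 359.2). All these genes were chosen after their values were seen. The GFP- mice were 5 weeks old and of mixed sex, while these MEClo arrays came from males of 8 weeks. At 5 weeks Tas2r118 averaged 3568 in MEClo.

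KO over control GFP+ cells gave 5 of 43 tuft genes lower and 2 higher, where 9.66% of all tested probe sets were lower and 9.4% higher (19.1% in all), so the share lies near the background. Without any filter it was 10 of the 83, against 17.4% of all probe sets. Inpp5d, a lipid phosphatase of blood cells, was higher in KO cells (0.80 ± 0.15, adjusted p = 0.0031 by limma), as was Hmx3, a homeobox factor (0.53 ± 0.12, adjusted p = 0.0097 by limma). Vil1, Nrgn, Pik3r5, Il17rb and Kctd12 were lower, by log2 differences between -0.79 and -0.52, and Kctd12 lost its call when any of 4 arrays was left out (adjusted p 0.055 to 0.076 by limma). Aire averaged 4101 in KO and 4372 in control GFP+ cells (-0.09, adjusted p = 0.75 by limma), so its transcript did not pass the test in either direction. The 4 keratinized markers summed to 300.3 to 440.5 in KO and 735.8 to 830.9 in control GFP+ cells (1 and 2 at or above the median intensity), the 4 neuroendocrine markers to 523.6 to 555.5 and 891.7 to 982.1 (2 and 1), and the 3 microfold markers to 1027 to 2007 and 2319 to 2707 (3 in either). Among the neuroendocrine markers Snap25 reached that median in KO cells only, against the direction of the list's sum. The part of these lists in the result was not tested. The GFP+ arrays are the same as in the contrast with GFP- cells.

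The genes with the pattern most like the mean of the 7 over the 10 epithelial groups were ranked by Pearson's r of group means. They came from 7593 probe sets, 1 per symbol, that varied by at least 1 log2 unit. The 7 genes, predicted genes, small RNAs and genes with only a clone or accession name got no rank, here and over all groups. The first were Alox5 (r = 0.990), Bmx (0.989), Gng13 (0.989), Gnb3 (0.989), Ano7 (0.986), Hepacam2 (0.986), Alox5ap (0.985), Prox1 (0.984), Pik3r5 (0.983) and Sh2d7 (0.982). Over all 65 groups, among 18687 probe sets, they were Ano7 (0.964), Gng13 (0.960), Stxbp5l (0.959), Sh2d7 (0.957), Tas2r108 (0.953), Gnb3 (0.951), Sh2d6 (0.946), Kcnh8 (0.942), Tmem236 (0.934) and Fezf1 (0.931). Ano7, Gng13, Gnb3 and Sh2d7 were in both. The listed tuft genes held 17 of the first 50 places over the epithelium and 11 over all groups. Of the 83 with a probe set, only those that varied by at least 1 log2 unit could be ranked. The lists were chosen with earlier results of these data known, so these counts are no independent support. These correlations describe 10 or 65 group means that share arrays and sorts.

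Some relatives of the 7 genes were also tested. Between MEChi and MEClo at 8 weeks, Trpm4, the closest relative of Trpm5, was not called (-0.07 ± 0.14, adjusted p = 0.75 by limma). Gnat1, the transducin of rods, reached the threshold only in MEChi (log2 difference 1.17 ± 0.16), and Gnai1, an inhibitory G protein subunit, was lower in MEChi (-1.45 ± 0.17, adjusted p = 4e-05 by limma). Scin, the actin-binding scinderin, was higher (1.28 ± 0.30, adjusted p = 0.0049 by limma), and so was Plcb4 (0.49 ± 0.13, adjusted p = 0.01 by limma), while Plcb3 was not called (0.16, adjusted p = 0.61 by limma). Pou2af1, a cofactor of POU factors known from B cells, was higher (0.66 ± 0.19, adjusted p = 0.016 by limma). In GFP+ over GFP- cells Scin was higher (1.19 ± 0.11, adjusted p = 1.4e-05 by limma), and Trpm4, which reached the threshold only in GFP- cells, had a log2 difference of -0.59 ± 0.12. Gnat2, Pou2f2, Dclk2, Dclk3, Plcb1 and Gfi1 were too dim to test in the 13-array fit.

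Outside the epithelium the 7 genes are also given as a description, with limma's log2 difference and SE and no p, since the values in all groups were open to their choice. The blood eosinophils came from C57BL/6J or C57BL/6 males of 44, 48 and 50 days, the blood neutrophils from C57Bl/6J males of 7 weeks, 6 weeks, 43 days and 48 days, and the skin mast cells from C57/Bl6 males of 6 weeks. Gfi1b was highest in blood eosinophils. Its intensities were 1401, 975.2 and 1678 in blood eosinophils, against 189.3, 211.8, 216.0 and 215.2 in blood neutrophils (log2 difference 2.67 ± 0.17, in a contrast where 39.7% of tested probe sets were called, 16.9% higher and 22.9% lower). It lay at 151.1, 166.9 and 169.6 in skin mast cells, against the same eosinophils (-3.02 ± 0.18, where 47.7% were called, 28.4% higher and 19.3% lower). The groups did not overlap in either contrast, and every eosinophil array was above every epithelial one. Blood basophils (976.8) and fat eosinophils (827.4), with 1 array each, and CD11b+ dendritic cells of fat (409.4 to 1173) were also high. By their labels the basophils came from mice of 6 weeks and the fat eosinophils from mice between 44 and 48 days old. The dendritic cells of fat came from mice of 48 days or more.

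Plcb2 lay at 2643, 1107 and 2692 in blood eosinophils, against 1382, 1031, 1098 and 1285 in blood neutrophils (0.74 ± 0.27), and the groups overlapped. It lay at 988.5, 963.7 and 951.5 in skin mast cells, below every eosinophil array (-1.04 ± 0.28). In lymph node T cells of 6-week-old C57BL/6 males, cultured with anti-CD3 and CD28 beads, Plcb2 is described by time without a test. In CD4 cells it lay at 1631 and 1093 on the arrays labelled CTR, 893.8 and 735.9 at 1 h, 609.3 and 628.8 at 5 h, 466.9 and 516.2 at 24 h, 816.7 and 815.3 at 48 h and 1189 at 96 h. In CD8 cells it lay at 1331 and 1432 on the arrays labelled CTR, 801.4 and 812.6 at 1 h, 574.6 and 669.0 at 5 h, 474.3 and 529.8 at 24 h, 811.5 and 845.3 at 48 h and 1176 at 96 h. In both subsets the lowest arrays were those of 24 h.

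Dclk1 lay at 1498 and 1589 in fibroblastic reticular cells (FRC, gp38+ CD140a+) of subcutaneous lymph node from 6-week-old C57BL/6J males, against 85.6 and 112.9 in lymphatic endothelial cells (LEC, gp38+ CD31+) of the same source (3.97 ± 0.17, where 33.3% of tested probe sets were called, 18.5% higher and 14.9% lower). The highest of all arrays outside the epithelium was also a fibroblastic one (1919, the lone array labelled FRC.Cad11.WT). No leukocyte array exceeded 127.6, so Dclk1 in fibroblastic cells came close to its level in MEClo, whose lowest array stood at 1934. Avil had log2 differences of -0.01 for eosinophils over neutrophils and -0.08 for skin mast cells over eosinophils. Gnat3, Trpm5 and Pou2f3 were below the filter in these contrasts. The bitter receptors Tas2r143, Tas2r135 and Tas2r126 averaged 161.3, 197.9 and 90.5 in blood eosinophils, against 1992, 1855 and 544.9 in blood neutrophils.

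**Figure D5:**
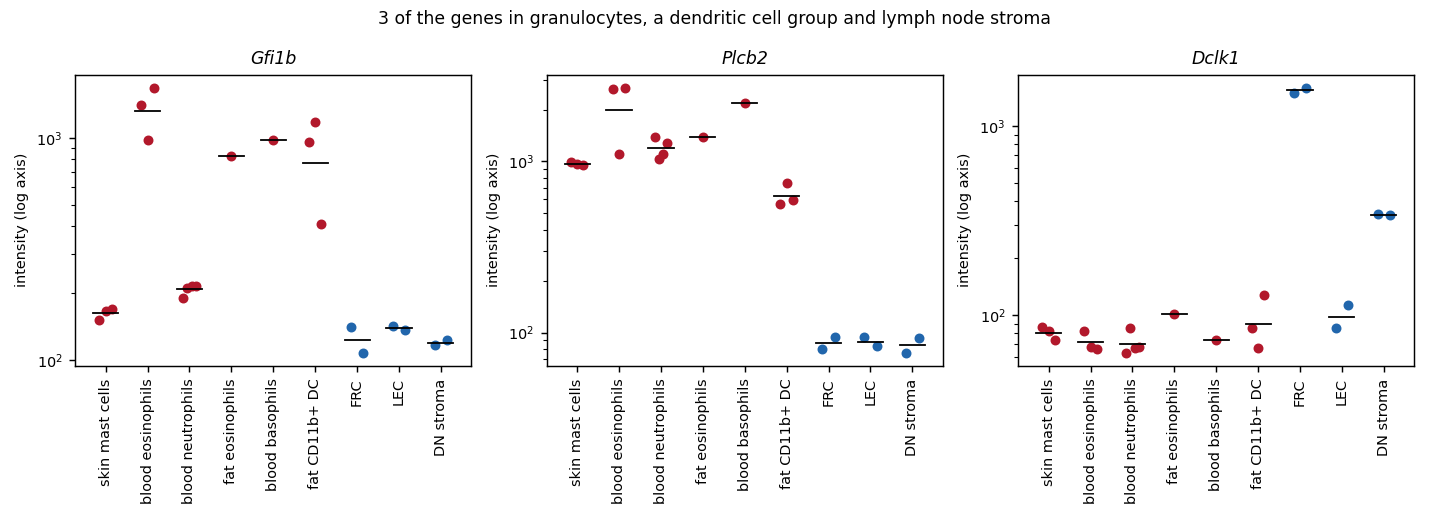
Intensity (log axis) of Gfi1b, Plcb2 and Dclk1 on each array of selected leukocyte and stromal groups. Points are arrays. Gfi1b is highest in blood eosinophils, Plcb2 is high in all the leukocytes shown and low in stroma, and Dclk1 is high in fibroblastic reticular cells.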

How the data were processed

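Total RNA of sorted cells was hybridised to Affymetrix arrays. The deposited values are linear intensity values per probe set, made with Affymetrix Power Tools and RMA per the submitters' processing notes, with no version given in the sources used here. The log2 was taken here, and each of 24922 probe sets kept the single symbol of the platform annotation, where it had 1. The members and gene lists were chosen with earlier results of these data known, so the lists are no independent support. A gene was read from its probe set with the highest mean over all arrays.

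Contrasts were fitted with limma 3.58.1 (lmFit and eBayes, two-sided) in R 4.3.3, in separate fits for the 13 sorted epithelial arrays, the 9 arrays of the GFP sorts, the blood and skin cells, and the stroma. A probe set entered where at least 1 group averaged no less than the median (percentile 50) of all values in the fit. Benjamini-Hochberg adjustment ran over every probe set tested in that fit, and an adjusted p under 0.05 was called. Where the groups hold 1 to 4 arrays, that number limits the precision. The procedure was tested on simulated data. The text names all 7 genes, up to 6 called list genes in each direction and contrast by size, the 10 genes most like the members, and listed relatives. List genes outside this rule (Spib, Alox5 and Rgs13 in MEChi over MEClo, the receptors given for blood cells, and genes set side by side between sorts) were chosen after their values were seen. No p is given for the 7 genes.

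Replicate numbers were checked as a pairing. In GFP+ and GFP- cells, which share 3 numbers, arrays of equal number deviated alike (r = 0.52, 0.47 and 0.20), so the numbers pair these arrays by the data. The SEs, adjusted p and lists given for this contrast come from the fit without pairing, and the replicate block was run as an alternative. The other groups share fewer than 3 numbers, with r from -0.24 (CEChi and MEChi) to 0.59 (CEC Sca1+ and CEChi), and were not taken as paired. Alternatives were no filter, a stricter filter (percentile 75), quantile normalization, an offset of 32, a trend and robust variances, all arrays in a single fit, a replicate block, the mean of a gene's probe sets, and each array left out in turn. Start regions came from RefSeq tables of build GRCm38.p6, and figures were drawn with matplotlib 3.10.9 in Python 3.11.15.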

Additional observations from a re-analysis of the deposited data

Results flagged for a closer look

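Samples far from the rest of their group were looked for in the 2 groups of 4 arrays, for each of the 7 genes, which gave 14 checks. In blood neutrophils, replicate 4 stood apart for Avil at an intensity of 160.8, with a gap of 0.865 of the group's range, and for Gfi1b at 189.3, with a gap of 0.851. In peritoneal mast cells, replicate 0, whose marker label differs from that of the other 3 arrays (of which 2 carry blood as their source), stood apart for Gnat3 at 26.43, with a gap of 0.881. These gaps passed Dixon's limit for 4 samples, which chance alone passes in about 1 in 20 groups, and the cause was not tested.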

How the results depend on the processing

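Of 2263 values compared with an alternative, 0 changed sign among the called ones. Of 1873 log2 differences 47 lost their call, 0 gained one, and 11 without a test moved by more than the spread. Counts of called tuft genes moved as follows. For MEClo at 8 over 5 weeks, 5 were called, 3 under the stricter filter and 2 to 8 with single arrays left out. For CEC Sca1+ over CEChi, 11 were called and 6 to 12 with single arrays left out. For GFP+ over GFP- cells, 34 were called, 60 without a filter and 33 to 35 with single arrays left out. For KO over control GFP+ cells, 7 were called, 4 under the stricter filter and 6 to 10 with single arrays left out. The other ranges with single arrays left out were 50 to 54 for MEChi over MEClo (57 called), 31 to 36 for CEChi over MEChi (38) and 45 to 49 for MEC Sca1+ over MEClo (48). For the 7 genes outside the epithelium only log2 differences are given, with single arrays left out. In eosinophils over neutrophils they ranged from 0.52 to 1.16 for Plcb2 and from 2.49 to 2.88 for Gfi1b. In skin mast cells over eosinophils they ranged from -1.46 to -0.82 for Plcb2 and from -3.24 to -2.85 for Gfi1b. In FRC over LEC they ranged from 3.77 to 4.17 for Dclk1. These ranges are a description and no support, since the choice of the genes covered these arrays. The cause was not tested.

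With the replicate block, 35 tuft genes were called in GFP+ over GFP- cells and no count of called tuft genes moved by over 1.5 times. With crossed numbers, chosen after seeing the data, the block left 57 in MEChi over MEClo, 38 in CEChi over MEChi and 5 in MEClo at 8 over 5 weeks. Over all probe sets, the stricter filter gave 3348 calls (against 5754) in MEChi over MEClo, 4184 (7223) in CEChi over MEChi, 573 (938) in MEC Sca1+ over MEClo, 1299 (1994) in CEC Sca1+ over CEChi, 4134 (6865) in GFP+ over GFP- and 1412 (2647) in KO over control, where no filter gave 4326. Fitting all arrays together gave 1526 calls with 760 higher in MEC Sca1+ over MEClo, against 938 with 351 higher, and 314 with 206 higher in MEClo at 8 over 5 weeks, against 85 with 45 higher. With single arrays left out, calls ranged from 473 to 1230 in MEC Sca1+ over MEClo, 29 to 135 in MEClo at 8 over 5 weeks, 1009 to 3088 in CEC Sca1+ over CEChi, 1692 to 2410 in KO over control and 2985 to 3351 in FRC over LEC (4667). Groups of 1 to 4 arrays limit all of these, and a lone array left in a group was assumed to vary like the others.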
